A study of Mus musculus with 4 samples.

Results

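Among the myeloid cells of the atherosclerotic mouse aorta, the 2 largest clusters that the authors deposited were compared directly: cluster 0 with 635 cells and cluster 1 with 543 cells, of 3002 cells in all. The members were taken by the authors' cluster number, and the clusters carry no name in the files. All cells came from 1 kind of animal, Apoe-/- mice fed a western diet for 13 weeks, and were taken as live CD45+ cells of the aorta. No untreated, wild-type or chow-fed group is in the comparison, so every level below belongs to lesion-bearing, Apoe-deficient animals. Per the series text 6 mice were used. The titles give 2 biological replicates with 2 libraries each (1-1 and 1-2, 2-1 and 2-2), and neither the titles nor the series text say how the mice were divided over them. The table holds the cells that the authors retained as myeloid by macrophage and dendritic cell markers.

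Macrophages of the arterial wall are known as a mixture of cells that settled early and renew themselves locally, and of cells that arrive as blood monocytes. Lyve1, a hyaluronan receptor, and Folr2, the beta folate receptor, mark adventitial resident macrophages. Cx3cr1 is the receptor of the chemokine fractalkine, and Cd72 is a membrane protein of B cells and some macrophages that carries inhibitory motifs in its tail. MHC class II proteins present peptides to CD4 T cells, and in atherosclerosis the lipid-laden (foamy) macrophages are known for Trem2, Spp1 and Gpnmb.

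For 5 genes called in the contrast, the 250 bases before the RefSeq start site are printed first (GRCm38.p6, read 5′ to 3′ along the gene's strand), because they differ in which short motifs their windows hold. Capitals mark matches, on either strand, to 7 short motifs: AP-1 (TGANTCA), CRE (TGACGTCA), the heat shock element (GAANNTTC), PU.1 (GAGGAAGT), NF-kappaB (GGGANTTCC), the MAF recognition core (TGCTGA) and the E-box of lysosomal genes (TCACGTGA). Folr2 (chr7:101845332-101845581, minus strand) is 1 of 2 windows of that gene, which was higher in cluster 0. Cd72 (chr4:43454627-43454876, minus strand), Areg (chr5:91139349-91139598, plus strand) and Tnip3 (chr6:65590148-65590397, plus strand) were higher in cluster 1, and the heat shock gene Hspa1b (chr17:34959239-34959488, minus strand) was higher in cluster 0.
Folr2: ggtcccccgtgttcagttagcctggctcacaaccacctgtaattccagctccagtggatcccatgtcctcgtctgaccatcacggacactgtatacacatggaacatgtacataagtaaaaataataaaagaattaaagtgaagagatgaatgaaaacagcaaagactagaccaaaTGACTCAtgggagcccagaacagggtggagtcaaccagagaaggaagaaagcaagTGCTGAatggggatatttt
Cd72: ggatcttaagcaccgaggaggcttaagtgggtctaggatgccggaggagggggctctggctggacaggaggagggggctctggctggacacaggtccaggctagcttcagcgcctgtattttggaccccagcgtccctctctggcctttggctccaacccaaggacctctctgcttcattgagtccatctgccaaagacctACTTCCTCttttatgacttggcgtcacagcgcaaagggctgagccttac
Areg: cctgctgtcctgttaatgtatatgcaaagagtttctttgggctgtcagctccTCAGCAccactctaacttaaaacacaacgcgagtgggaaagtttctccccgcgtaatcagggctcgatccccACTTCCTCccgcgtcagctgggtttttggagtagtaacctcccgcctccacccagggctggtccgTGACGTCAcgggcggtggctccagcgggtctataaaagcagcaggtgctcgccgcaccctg
Tnip3: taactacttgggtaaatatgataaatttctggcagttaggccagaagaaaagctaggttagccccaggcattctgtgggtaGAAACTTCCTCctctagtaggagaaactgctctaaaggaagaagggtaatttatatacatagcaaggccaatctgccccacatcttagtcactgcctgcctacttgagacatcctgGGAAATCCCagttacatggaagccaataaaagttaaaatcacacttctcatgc
Hspa1b: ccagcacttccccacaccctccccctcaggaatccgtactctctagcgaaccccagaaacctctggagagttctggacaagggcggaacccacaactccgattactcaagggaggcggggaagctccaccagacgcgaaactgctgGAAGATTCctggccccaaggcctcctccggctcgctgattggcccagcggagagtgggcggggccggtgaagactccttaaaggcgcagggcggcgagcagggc
The Folr2 window holds an AP-1 match that begins at -74 and a MAF core at -19, counted from -1 at the base before the start. Cd72 holds a PU.1 match at -49. In the Areg window a CRE match begins at -61, a PU.1 match at -126 and a MAF core at -198. Tnip3 holds an NF-kappaB match at -53, and a heat shock element at -169 that overlaps a PU.1 match at -166. Hspa1b holds a heat shock element at -104. Of 32851 RefSeq windows, which run 50 bases further than those printed, 7.81% hold AP-1, 1.79% CRE, 7.86% the heat shock element, 3.2% PU.1, 1.68% NF-kappaB, 19.5% the MAF core and 0.974% the E-box. A match is a description of the letters and not a measured binding site.

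The targeted gene was read first. Apoe, which encodes apolipoprotein E, was present at 137, 95.8, 61.5 and 58.9 UMIs (unique molecular identifiers, which mark single captured RNA molecules) per 1000000 UMIs of the cluster, abbreviated CPM, in cluster 0 of libraries 1-1, 1-2, 2-1 and 2-2. In cluster 1 it was at 28.5, 34.3, 10.7 and 18.2 CPM. The clusters did not overlap, and in each of them both libraries of replicate 1 lay above both libraries of replicate 2. Where the 3' tags lie relative to the disrupted part of Apoe is not stated in the labels, so these levels do not check the genotype. The libraries differed in depth, with median UMIs per cell of 7223, 3933, 7285 and 4156 for the cells of cluster 0. Those of cluster 1 had medians of 7666, 4389, 8129 and 4714. The cluster sums held 1221273 and 1961236 UMIs for cluster 0, and 1680416 and 1483324 for cluster 1, in replicates 1 and 2. No cell barcode was shared between libraries.

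Both clusters had the macrophage markers of the series text. Adgre1 (F4/80) was at 599 and 570.0 CPM in cluster 0 and 556 and 529 CPM in cluster 1, and the 4 libraries of the clusters overlapped. Its log2 fold change (cluster 0 over cluster 1) was -0.01 ± 0.13 (SE here and below, n = 2 replicates), and its sign turned with the scaling, at 0.11 on library totals. Every SE comes from the edgeR fit described below, which takes the spread largely from all genes. An SE is therefore not the gene's own spread between the 2 replicates. Csf1r, the receptor of macrophage colony-stimulating factor, was at 923 and 1008 CPM against 633 and 574. Fcgr1 was at 286 and 286 CPM against 271 and 202, and Lyz2 at 13086 and 13589 against 11053 and 9701 CPM. Of the dendritic cell markers, Flt3 had 1 UMI in all of cluster 0 and 18 in cluster 1, and Zbtb46 had 12 and 3. Itgax (CD11c) was at 4.09 and 2.55 CPM in cluster 0 and at 51.8 and 62.0 CPM in cluster 1.

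The 4 markers that name the contrast separated the clusters in every library. Lyve1 (chr7:110850607-110863239, minus strand, GRCm38) was at 682, 750.4, 840.3 and 772 CPM in the 4 libraries of cluster 0 and at 0, 17.2, 4.57 and 29.1 CPM in cluster 1. Folr2 (chr7:101839988-101857194, minus strand) was at 736, 884, 976 and 933 CPM against 21.9, 47.4, 48.7 and 66.6. Cd72 (chr4:43446462-43454628, minus strand) was at 179, 136, 81.7 and 145 CPM in cluster 0 and at 673, 564, 721 and 703 in cluster 1. Cx3cr1 (chr9:119901616-120069879, minus strand) was at 154, 93.8, 105 and 127 CPM against 338, 246, 297 and 305. No library of one cluster reached the range of the other for any of these 4 genes. The log2 fold changes were 5.54 ± 0.18 for Lyve1, 4.09 ± 0.16 for Folr2, -2.46 ± 0.15 for Cd72 and -1.48 ± 0.16 for Cx3cr1 (SE, n = 2 replicates). They are given as a description, since these genes label the contrast.

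**Figure D1:**
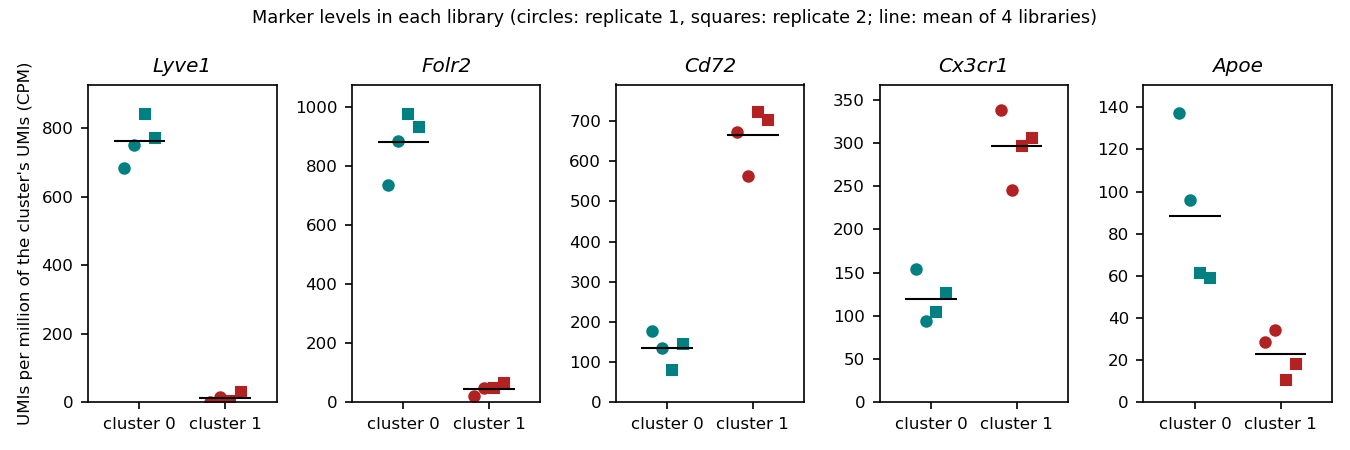
Level of each gene in CPM on the y axis, by cluster on the x axis; each point is 1 library, circles for replicate 1 and squares for replicate 2, and the line is the mean of the 4 libraries. Lyve1 and Folr2 are high in the 4 libraries of cluster 0, Cd72 and Cx3cr1 in the 4 libraries of cluster 1, and Apoe is higher in cluster 0 of each library.

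Seen over all 14 clusters, as a mean of the 2 replicates, cluster 0 had the highest Lyve1 level, 771 ± 47.8 CPM (SD, n = 2), and the next was cluster 2 at 321 ± 42.9. Folr2 was at 904 ± 69.8 CPM in cluster 0 and at 882 ± 99.9 in cluster 3, which lies within the spread. Cd72 was highest in cluster 1, at 653 ± 83.0 CPM, and cluster 6 came next at 348 ± 23.9. Cx3cr1 had its highest level in cluster 1 too, at 286 ± 21.6 CPM, before cluster 6 at 192 ± 17.4. Among the 14 clusters, then, cluster 0 was the Lyve1-high one and cluster 1 the Cd72-high and Cx3cr1-high one.

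Some cells held markers of both kinds, in a share that depended on depth. After each cell was thinned to 2000 UMIs, which leaves out 30 cells of cluster 0 and 22 of cluster 1, a Lyve1 UMI was found in 52.1% of cluster 0 cells (exact binomial 95% interval 48.0 to 56.1%) and in 1.15% of cluster 1 cells (0.424 to 2.49%). For Folr2 the shares were 64.3% and 4.99%, for Cd72 16.4% and 53.5%, and for Cx3cr1 16.0% and 41.5%. Without thinning they were 61.4% and 2.76% for Lyve1, 75.9% and 11.2% for Folr2, 31.8% and 75.9% for Cd72, and 27.2% and 63.7% for Cx3cr1. After thinning 17.5% of cluster 0 cells and 3.45% of cluster 1 cells held UMIs from both marker pairs, against 34.8% and 10.1% at the deposited depth. Cells of cluster 0 with Lyve1 or Folr2 alone made up 56.7% after thinning, and cells of cluster 1 with Cd72 or Cx3cr1 alone 68.7%. Free RNA that carries UMIs into other cells was not measured. No cell type that lacks these genes was set beside the shares, so cells with both kinds are not read as expressing both. The median depth was 4404 UMIs in cluster 0 and 5115 in cluster 1. The intervals cover counting error only.

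The numbers of cells differed between the replicates. Cluster 0 made up 38.4% and 48.2% of the cells of both clusters in libraries 1-1 and 1-2, and 61.6% and 60.1% in libraries 2-1 and 2-2. The exact binomial 95% interval was 42.6 to 51.0% in replicate 1 and 56.6 to 64.5% in replicate 2. These intervals cover the counting of cells only, and not the spread between libraries or animals. All 4 libraries come from 1 group of mice, so no condition could be set against this difference.

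Across 8431 genes tested, 1214 were higher in cluster 0 (14.4% of those tested) and 1382 were higher in cluster 1 (16.4%), by edgeR's quasi-likelihood test with the replicate as a block and a Benjamini-Hochberg adjusted p under 0.05. Among them 630 were at least 2-fold higher in cluster 0 and 523 at least 2-fold higher in cluster 1. At least 4-fold differences were found for 203 and 211 genes. The median log2 fold change over all genes tested was 0.02. With library totals in place of TMM scaling (the trimmed mean of M-values) the split turned to 1623 higher in cluster 0 and 1049 higher in cluster 1, so the balance of the small differences depends on the scaling. The p-values rest on how far the difference between the clusters varied between these 2 replicates, after the replicate block. With 1 residual degree of freedom, edgeR took that spread largely from all genes, at a median of 52.5 prior degrees of freedom. Since the authors drew the clusters from the same counts, the p-values are too small. When the counts were divided at random, the cells were regrouped into 2 on one portion and tested on the other. Of these cells 93.6% returned to their cluster, and 899 and 985 genes were called. Only cells already placed in the 2 clusters on all their counts were regrouped. That use of the counts was therefore not removed. Without library 1-2 the counts fell to 743 and 805, without replicate 2 to 590 and 691, and DESeq2 called 306 and 458. Wherever a replicate was left out, the 2 libraries of the other replicate stood as the samples. Such fits hold no biological replication.

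**Figure D2:**
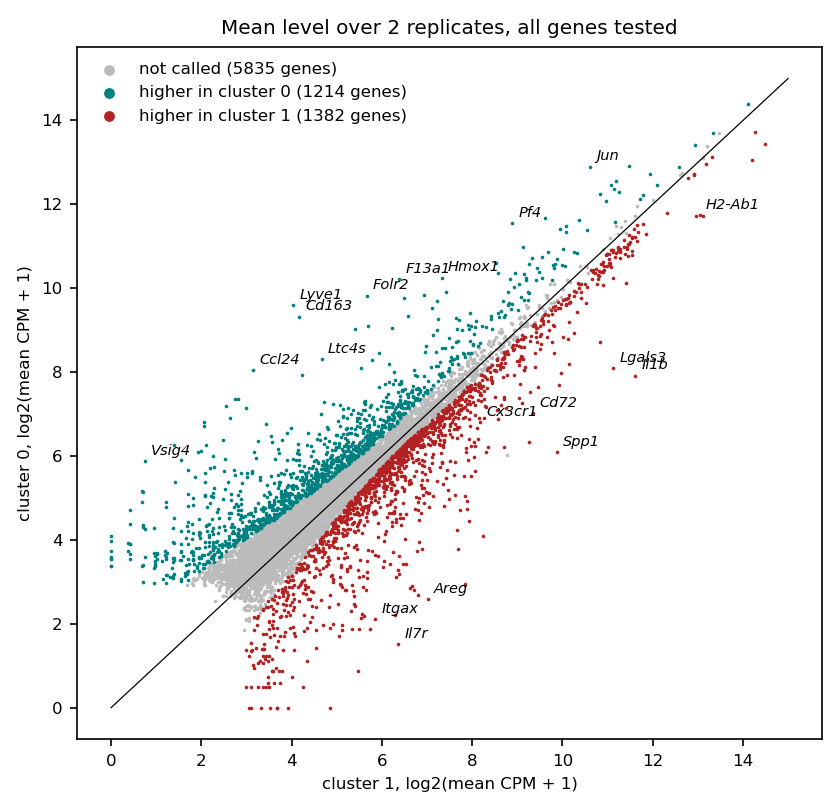
Mean level of each of the 8431 genes tested, cluster 1 on the x axis and cluster 0 on the y axis, both as log2(mean CPM of 2 replicates + 1). The black line marks equal levels; 1214 genes above it were called higher in cluster 0 and 1382 below it higher in cluster 1, with Lyve1, Cd163 and Vsig4 far above and Il1b, Spp1 and Il7r far below.

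Among called genes that reached 50 CPM in the higher cluster and had no cell with over 20% of its UMIs there, the 12 highest fold changes in cluster 0 belonged to Vsig4, Lyve1, Pla2g2d, Cd163, Ednrb, Ccl24, Fcna, Timd4, Cyr61, Cd209f, Colec12 and Fgfr1. Vsig4, a complement receptor of tissue macrophages, had 205 UMIs in cluster 0 and 2 in cluster 1, a ratio of 102 per UMI sequenced (exact 95% counting interval 27.9 to 847). Cd163, the receptor for haemoglobin-haptoglobin, was at 753, 659, 631 and 574 CPM in cluster 0 and at 19.7, 11.4, 22.8 and 18.2 CPM in cluster 1, a log2 fold change of 5.12 ± 0.18. Timd4, a receptor for phosphatidylserine on dying cells, was at 58.2, 45.9, 74.3 and 65.8 CPM against 0, 2.45, 0 and 3.63. Its log2 fold change was 4.77 ± 0.35. Ccl24, an eosinophil chemokine, was at 191, 175, 295 and 403 CPM against 4.39, 3.27, 1.52 and 20.6. Besides Lyve1, the other members of this group ran from 4.41 (Fgfr1, a receptor for fibroblast growth factors) to 5.35 (Pla2g2d, a secreted phospholipase). In each of these 12 genes the libraries of the clusters did not overlap. That follows largely from their choice by fold change in the same counts. The share of such genes among all those tested was not computed.

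Under the same conditions the 12 highest fold changes in cluster 1 belonged to Il7r, Areg, Mmp14, Cadm1, Vegfa, Dusp5, AA467197, Tnip3, Spp1, Bcl2a1a, Itgax and Kcnn4. Il7r, the alpha chain of the interleukin-7 receptor, was at 0, 2.04, 3.18 and 0.982 CPM in cluster 0 and at 83.3, 77.6, 62.4 and 101 CPM in cluster 1. The log2 fold change was -5.50 ± 0.30. Areg, the EGF receptor ligand amphiregulin, was at 0, 6.12, 3.18 and 6.87 CPM against 101, 141, 157 and 104. Spp1 (osteopontin) varied widely, at 8.32, 140, 2.12 and 37.3 CPM in cluster 0 and 625, 1304, 590.4 and 904 CPM in cluster 1. One cell held 40.2% of the Spp1 UMIs of cluster 0. Tnip3, an inhibitor of NF-kappaB signalling, was at 8.32, 11.2, 29.7 and 13.7 CPM against 202, 338, 365 and 251. Vegfa, the vascular growth factor, was at 0, 14.3, 0 and 0.982 CPM against 140, 126, 65.4 and 88.4. Across these 12 genes the log2 fold changes ran from -5.50 to -4.22 (Kcnn4, a calcium-activated potassium channel), with no overlap between the libraries of the clusters. As for the genes of cluster 0, that follows largely from the way they were chosen. Mmp12, a macrophage elastase, was at 6.70 and 227 CPM in clusters 0 and 1, a log2 fold change of -5.30 ± 0.21, and lies outside this ranking because 1 cell held 23.9% of its UMIs in cluster 1. Genes under 50 CPM lie outside it too, such as Cd209b, at 5.88 ± 0.69 with 25.1 CPM in cluster 0.

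The resident macrophage list moved in one direction, over a wide range of fold changes. All 17 members in the table were called higher in cluster 0, with a median log2 fold change of 3.73 against 0.02 over all genes, and the list includes Lyve1 and Folr2. Selenop, the remaining member, is not analysed here. F13a1, coagulation factor XIII A, was at 1106, 1128, 1251 and 1227 CPM in cluster 0 and at 78.95, 93.1, 63.9 and 83.5 in cluster 1. Pf4, the chemokine Cxcl4, was at 2708, 2668, 3459 and 3135 CPM against 301, 343, 473 and 724. Mrc1 (CD206, the mannose receptor) had a smaller log2 fold change, 1.95 ± 0.13. Igf1, named after its value was seen, had the smallest of the list, 0.44 ± 0.14. The summed list took a median of 1.10% of a cell's UMIs in cluster 0 and 0.117% in cluster 1.

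Of 12 scavenger and lipoprotein receptors tested, 6 were higher in cluster 0 and 5 in cluster 1. The count in cluster 0 was 5 or 6 in each of the 19 alternatives, whereas that in cluster 1 was 0 with DESeq2, with thinned cells, without replicate 2 and in cells of low stress share, and 2 on library totals. Cd36, a receptor for oxidised lipoproteins and fatty acids, was at 241, 253, 329 and 271 CPM in cluster 0 and at 15.4, 62.1, 51.7 and 32.7 in cluster 1. Its log2 fold change was 2.48 ± 0.17. The 5 receptors called higher in cluster 1 were Lrp1 at -0.48 ± 0.15, Scarb2 at -0.46 ± 0.14 and Cd68 at -0.35 ± 0.14, and the low-level genes Olr1 (LOX-1) at -4.01 ± 0.73 and Scarb1 at -1.10 ± 0.35. Olr1 had mean levels of 0.819 and 10.7 CPM in clusters 0 and 1, and Scarb1 9.55 and 19.1. Lrp1, Scarb2 and Cd68 lost their call on library totals, with edgeR adjusted p of 0.0613, 0.0531 and 0.197. Of 12 receptors and bridging proteins for dying cells, 5 were higher in each cluster. Gas6, a bridging ligand of the TAM receptors, was at 424, 462, 620 and 605 CPM in cluster 0 against 68.0, 58.0, 82.2 and 89.6, while Axl, a TAM receptor, was at 49.9, 46.9, 40.3 and 63.8 CPM against 193, 163, 207 and 149. Gas6 and Axl were therefore higher in opposite clusters, with no overlap of libraries in either gene. Mertk, another TAM receptor, named after its value was seen, stood at 0.83 ± 0.14. The integrin chains Itgav and Itgb5 stood at -1.47 ± 0.16 and -1.39 ± 0.16.

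Cx3cr1 was not accompanied by the whole of the microglia-type list to which it belongs. Of 19 members tested, 9 were higher in cluster 0 and 6, Cx3cr1 included, in cluster 1. Olfml3 had a log2 fold change of -2.98 ± 0.22, and Tgfbr1, a TGF-beta receptor chain, -1.67 ± 0.16. Gpr34, a lysophosphatidylserine receptor, stood at 1.63 ± 0.14, P2ry12, a purine receptor, at 1.50 ± 0.20, and Mef2c, a transcription factor, at 0.95 ± 0.14. The summed list took nearly the same median share of a cell's UMIs, 0.394% in cluster 0 and 0.380% in cluster 1.

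Antigen presentation genes were higher in cluster 1. Of 9 MHC class II genes tested, 8 were called there and none in cluster 0, with a median log2 fold change of -1.36. H2-Ab1 was at 3456, 3193, 3208 and 3986 CPM in cluster 0 and at 8516, 8846, 8785 and 7474 CPM in cluster 1, a log2 fold change of -1.41 ± 0.08. H2-Eb1 stood at -1.50 ± 0.08 and H2-DMb1, a chain of the peptide-loading chaperone, at -1.47 ± 0.14. Cells of cluster 0 varied widely: the list took a median of 1.26% of a cell's UMIs, with quartiles of 0.238 and 3.66%. In cluster 1 the median was 5.42%, with quartiles of 1.79 and 7.55%. Of 16 costimulation and checkpoint genes, 1 was higher in cluster 0 and 8 in cluster 1. Cd72 belongs to that list, as does Pilra, an inhibitory receptor, at -2.09 ± 0.20, and Tnfsf9 (4-1BB ligand) at -0.86 ± 0.15.

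**Figure D3:**
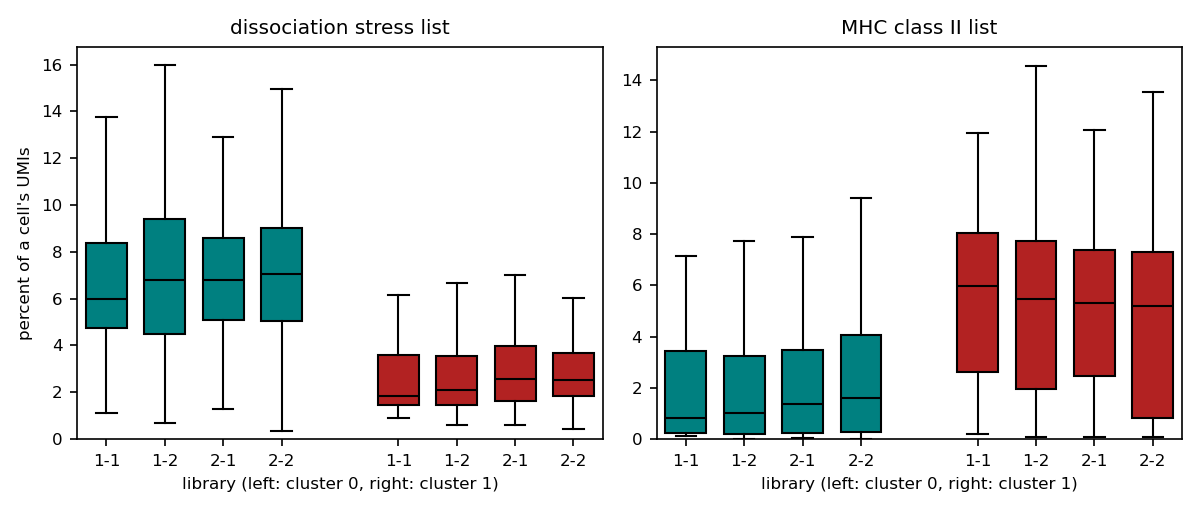
Share of each cell's UMIs, in percent, taken by the 16 dissociation stress genes (left) and the 12 MHC class II genes (right), by library and cluster. Boxes give the quartiles with the median as a line, whiskers reach to 1.5 times the box, and cells beyond them are not drawn; over all libraries the medians are 6.82% and 2.30% for stress and 1.26% and 5.42% for MHC class II, in clusters 0 and 1.

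Lipid-handling genes of foamy macrophages were also higher in cluster 1. Of 21 members tested, 16 were called there and 1, Cd36, in cluster 0, with a median log2 fold change of -1.38. Lgals3 (galectin-3) was at 362, 304, 246 and 207 CPM in cluster 0 and at 1645, 2582, 1840 and 2336 CPM in cluster 1. The tetraspanin Cd9 stood at -3.11 ± 0.19. Trem2, a lipid-sensing receptor, was at 204, 300, 274 and 281 CPM against 583, 639, 635 and 781, a log2 fold change of -1.38 ± 0.14. Gpnmb, a glycoprotein of lipid-laden macrophages, was at 0, 16.3, 3.18 and 2.95 CPM against 65.8, 89.8, 54.8 and 101. Trem2 and Gpnmb were picked after their values were seen. Of 23 lysosomal genes, 2 were higher in cluster 0 and 12 in cluster 1. Ctss, cathepsin S, stood at -1.40 ± 0.10 and Ctsz at -1.01 ± 0.12, while Ctsc, cathepsin C, stood at 0.50 ± 0.11 and Grn, progranulin, at 0.38 ± 0.13.

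The list of inflammatory cytokine and inflammasome genes followed the same direction. Of 16 members tested, 10 were higher in cluster 1 and none in cluster 0, with a median log2 fold change of -1.10. Those called were not all inflammatory cytokines, since they included the inflammasome genes Nlrp3 and Pycard, the enzyme gene Ptgs2, and Il1rn and Il10. Il1b, interleukin-1 beta, was at 191, 427, 149 and 54.0 CPM in cluster 0 and at 3437, 3410, 3132 and 2639 CPM in cluster 1. Its log2 fold change was -4.11 ± 0.18, and after thinning an Il1b UMI was found in 9.59% of cluster 0 and 68.5% of cluster 1 cells. In cluster 0 Il1b varied between the replicates, at 240 ± 199 CPM (SD, n = 2), a spread that this SE does not show. Its antagonist Il1rn was higher in cluster 1 too, at -3.00 ± 0.17, as was Ptgs2 (cyclooxygenase 2), at -2.45 ± 0.18. Tnf was not called, at -0.13 ± 0.14 with an edgeR adjusted p of 0.554. Across the other clusters Il1b was higher still, at a mean of 11160 CPM in cluster 7, so cluster 1 was not its peak. Of 17 NF-kappaB genes, 4 were higher in cluster 0 and 11 in cluster 1. Besides Tnip3, the adaptor Traf1 stood at -2.44 ± 0.16 and the inhibitor Nfkbie at -1.82 ± 0.15, while Ier3 stood at 1.29 ± 0.12 and Nfkbiz at 0.61 ± 0.12.

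Chemokine ligands and their receptors leaned to opposite clusters. Of 18 ligands tested, 10 were higher in cluster 0 and 5 in cluster 1. Ccl8, a ligand for monocytes and eosinophils, was at 645, 1044, 999 and 584 CPM in cluster 0 and at 92.1, 105, 32.0 and 111 CPM in cluster 1. Cxcl16, a membrane-bound ligand that also binds oxidised lipoprotein, was higher in cluster 1, at -1.46 ± 0.14, and Cxcl1 at -0.66 ± 0.14. Of 10 receptors tested, 2 were higher in cluster 0 and 5, the marker Cx3cr1 included, in cluster 1. Ccr2, the receptor by which monocytes leave the marrow, was at 74.9, 102, 17.0 and 79.5 CPM against 419, 428, 399 and 407. Cxcr4 stood at -1.26 ± 0.16. Cmklr1, the chemerin receptor, was higher in cluster 0, at 1.20 ± 0.15, and so was C5ar1, the receptor of complement C5a, at 0.73 ± 0.15. Beside Ccr2, the summed monocyte markers were at 74.3 to 194 CPM over the libraries of cluster 0 and at 665 to 849 CPM in cluster 1, with none of the 8 markers at 0 in either cluster. Their part in these results was not tested.

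Most of the complement and the iron and haem genes tested were higher in cluster 0. Of 14 complement genes tested, 8 were higher there and 2 in cluster 1. C4b, a component of the classical and lectin pathways, was at 574, 520.0, 587 and 538 CPM in cluster 0 and at 68.0, 55.5, 32.0 and 52.1 CPM in cluster 1. Of 15 iron and haem genes, 9 were higher in cluster 0 and 3 in cluster 1. Hmox1, the enzyme that breaks down haem, was at 874, 1145, 1224 and 1466 CPM against 89.9, 185, 105 and 202. Cp, the ferroxidase ceruloplasmin, stood at 2.55 ± 0.21. Fth1, the ferritin heavy chain that stores iron, was higher in cluster 1, at 9326, 12064, 10303 and 11118 CPM against 19155, 23108, 22297 and 25311. Of 12 genes of prostaglandin and leukotriene synthesis, 5 were higher in cluster 0, 1 (Ptgs2) was higher in cluster 1, and 6 were not called. Ltc4s, leukotriene C4 synthase, was at 229, 292, 354 and 348 CPM against 26.3, 24.5, 21.3 and 25.4, and Alox5 stood at 2.13 ± 0.18.

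Erythroid marker transcripts (globins and Alas2) were read beside the haem genes. They summed to 4414 UMIs in cluster 0, of which 1 cell held 4350, and to 7096 in cluster 1, of which 1 cell held 7018. Without the 3 cells that held over 100 UMIs of erythroid or plasma cell markers, 9 haem genes were higher in cluster 0 and 3 in cluster 1, the same counts as with them, and 1246 and 1420 genes were called in all.

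Growth factors and matrix enzymes were divided. Of 16 growth factors tested, 8 were higher in cluster 0 and 7 in cluster 1. Bmp2 stood at 2.44 ± 0.19 and Gas6 at 2.74 ± 0.15, while Pdgfb, a mitogen of smooth muscle cells, stood at -2.02 ± 0.16 beside Areg and Vegfa. Of 14 matrix remodelling genes, 5 were higher in cluster 0 and 8 in cluster 1. Adam33 stood at 4.05 ± 0.26 and Timp2, an inhibitor of metalloproteinases, at 0.90 ± 0.13, whereas Mmp14, which cleaves collagen at the cell surface, stood at -4.65 ± 0.28 and the cross-linking enzyme Tgm2 at -3.46 ± 0.22. Of 11 leukocyte integrins, 7 were higher in cluster 1 and none in cluster 0. Itga5, a chain of the fibronectin receptor, stood at -1.95 ± 0.17 and Itga6, of a laminin receptor, at -1.62 ± 0.14.

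Surface lectins, Fc receptors and MS4A proteins were each divided within their family. Of 16 C-type lectin receptors tested, 8 were higher in cluster 0 and 4 in cluster 1. Cd209f and Cd209g stood at 4.69 ± 0.21 and 4.41 ± 0.31, and Clec10a, a galactose-type lectin, at 2.40 ± 0.17. The receptors Clec4e (Mincle) and Clec4d, which sense microbial glycolipids, stood at -2.50 ± 0.16 and -1.48 ± 0.18. Members of the Cd209 and Clec4 families lie close together and are alike in sequence, so the division of reads among them is uncertain. Of 10 Fc receptor genes, 4 were higher in cluster 0 and 3 in cluster 1. Fcgrt, the neonatal Fc receptor that recycles antibody, stood at 1.92 ± 0.14, and Fcgr4, an activating receptor, at -1.81 ± 0.15. Of 8 MS4A genes, 4 were higher in cluster 0 and 3 in cluster 1, with Ms4a6b at 0.89 ± 0.14 and Ms4a7 at -1.46 ± 0.13.

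Transcription factors also fell on both sides. Of 36 tested, 14 were higher in cluster 0 and 13 in cluster 1. Maf, a factor of tissue macrophages, was at 778, 749, 754 and 695 CPM in cluster 0 and at 191, 149, 107 and 116 CPM in cluster 1. Klf2 stood at 1.71 ± 0.12 and Irf1 at 1.49 ± 0.15. Bhlhe40, a basic helix-loop-helix factor, stood at -3.47 ± 0.25. The nuclear receptors Nr4a3 and Nr4a2 stood at -2.40 ± 0.18 and -2.11 ± 0.15, and for Nr4a3 the lowest library of cluster 1, at 104 CPM, was level with the highest of cluster 0. Of 16 glycolysis genes, 9 were higher in cluster 1 and 1, Hk2, in cluster 0. Pfkp, a phosphofructokinase, stood at -1.67 ± 0.17 and Gapdh at -0.97 ± 0.13. Of 5 cell cycle genes tested, 3 were higher in cluster 1, among them Stmn1 at -0.93 ± 0.17. DESeq2 and the thinned cells called none of the list.

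Interferon-response genes were higher in cluster 0. Of 20 members tested, 13 were called there and 1 in cluster 1, with a median log2 fold change of 0.86. Ifit3 was at 74.9, 61.2, 74.3 and 62.8 CPM in cluster 0 and at 2.19, 7.35, 18.3 and 18.2 CPM in cluster 1, a log2 fold change of 2.35 ± 0.24. Rtp4 stood at 1.19 ± 0.14 and Stat2, a signalling component of type I interferon receptors, at 1.16 ± 0.21. Slfn2 was the member higher in cluster 1, at -1.22 ± 0.14.

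The counts of the lists can be read against the shares over all genes tested, 14.4% higher in cluster 0 and 16.4% higher in cluster 1. In the direction of its larger count, each list had a higher share, from 38.9% (transcription factors, in cluster 0) to 100% (resident macrophage genes). Divided lists could exceed the shares in both directions, as the growth factors did with 50% and 43.8%. The lists were picked with earlier results of these data known, and were not matched in level to all genes tested. A share above that of all genes is therefore not read as a result about a list. In the other direction, chemokine receptors in cluster 0 (20%), iron and haem genes in cluster 1 (20%) and complement genes in cluster 1 (14.3%) lay near those shares. The smaller counts of the costimulation (6.25%), foamy macrophage (4.76%), lysosome (8.70%) and glycolysis (6.25%) lists in cluster 0 lay below them, as did those of the prostaglandin (8.33%) and interferon (5%) lists in cluster 1.

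Some of these counts moved when 1 library was left out. Without library 1-2 the count in cluster 1 fell from 5 to 1 for scavenger receptors, from 8 to 5 for costimulation genes and from 8 to 5 for matrix genes. In cluster 0 it fell from 4 to 2 for NF-kappaB genes, from 4 to 1 for MS4A genes, from 2 to 1 for lysosomal genes and from 1 to 0 for glycolysis genes. Without library 2-2 the scavenger receptor count in cluster 1 fell to 3 and the MS4A count in cluster 0 to 1, and without library 2-1 the latter fell to 2. The single calls in cluster 0 of the foamy macrophage list became 2 without library 1-1 or without library 2-1, and that of the costimulation list became 2 without library 2-1. The resident macrophage count was 16 or 17 and the MHC class II count 8 whichever library or replicate was left out. With a replicate left out, these counts rest on the libraries of 1 biological replicate.

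**Figure D4:**
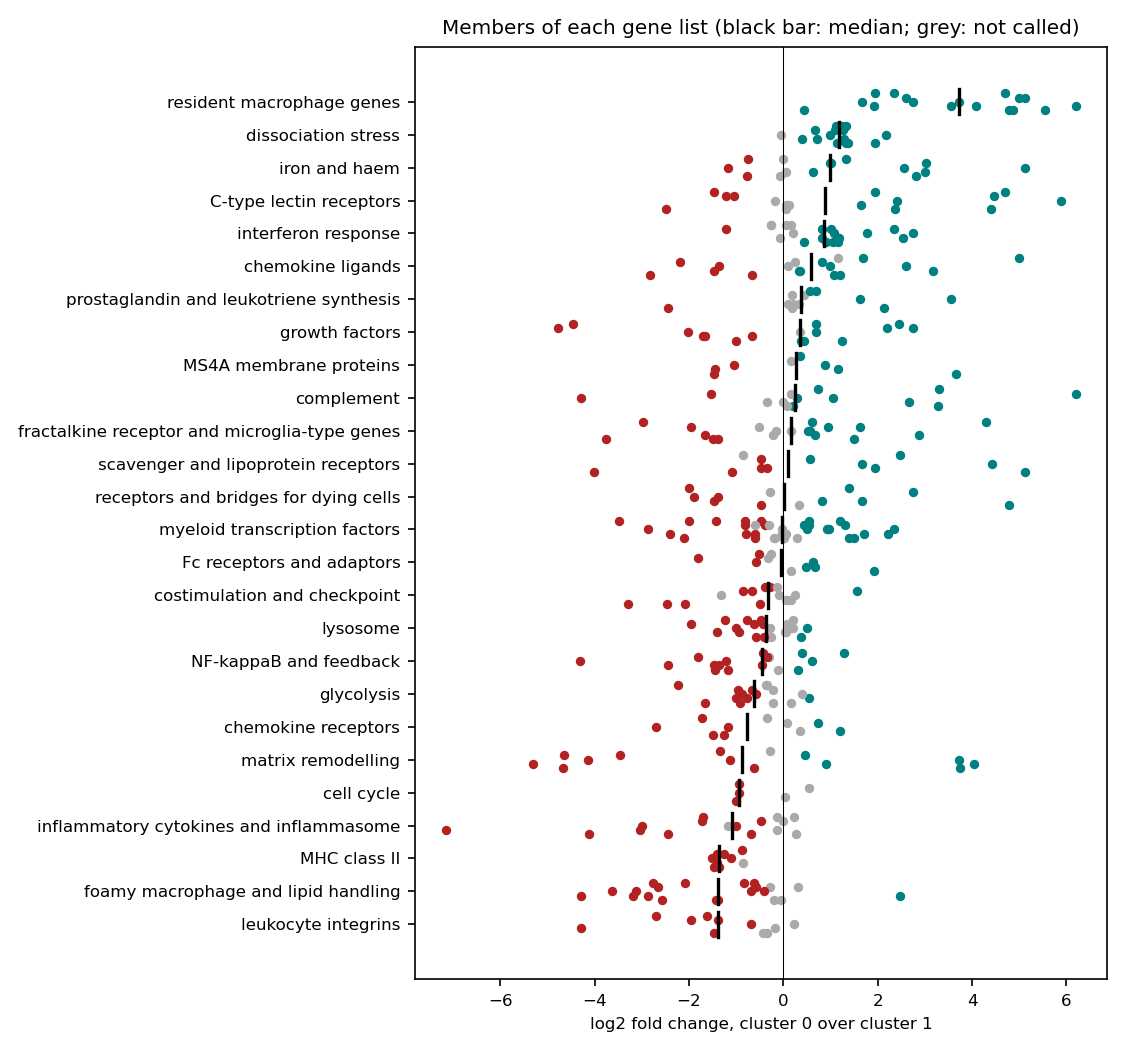
Log2 fold change, cluster 0 over cluster 1, of every tested member of the 26 gene lists, ordered by median (black bar). Each point is 1 gene, teal where called higher in cluster 0, red where called higher in cluster 1 and grey where not called; resident macrophage genes lie far to the right, and leukocyte integrins, foamy macrophage genes and MHC class II genes to the left.

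Transcripts that tissue digestion is known to induce moved with the contrast. Of 16 dissociation stress genes, 15 were higher in cluster 0 and none in cluster 1, with a median log2 fold change of 1.19. Jun, a subunit of AP-1, was at 7870, 7004, 8050 and 8091 CPM in cluster 0 and at 1283, 1446, 1984 and 1525 CPM in cluster 1. Egr1 stood at 1.95 ± 0.11 and Hspa1b, an inducible heat shock protein, at 1.37 ± 0.11. Hspa1b has a near-identical neighbour, Hspa1a, with which it can share reads. The list took 6.37 to 7.06% of the UMIs over the libraries of cluster 0 and 2.74 to 3.21% over those of cluster 1. Mitochondrial transcripts had medians of 3.75% and 4.47% of a cell's UMIs, and ribosomal protein genes 10.5% and 13.7%. With the list left out of the totals and the test, 1223 and 1403 genes were called.

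To see which differences were also present between cells of like stress level, the cells were divided at the median share of the list over both clusters, 4.51% of UMIs, a choice made after seeing the data. The cells under it numbered 135 in cluster 0 and 454 in cluster 1, and those at or over it 500 and 89. The division used the list's own genes, so its members are not tested by it, and within each part cluster 0 still had the higher median share, 3.16 against 1.99% and 7.59 against 6.20%. Among the low-stress cells 581 of 6853 genes were higher in cluster 0 (8.48%) and 683 higher in cluster 1 (9.97%). Among the high-stress cells 325 of 5709 were higher in cluster 0 (5.69%) and 435 higher in cluster 1 (7.62%). Of the resident macrophage list, 16 members were called higher in cluster 0 in each part. Of the MHC class II list, 7 and 8 were called higher in cluster 1, and of the cytokine and inflammasome list 9 and 6. Il10, an anti-inflammatory cytokine on the cytokine list, was the 1 member called higher in cluster 0 in the high-stress cells, at 1.23 ± 0.39 (edgeR adjusted p = 0.0147), after -0.47 ± 0.16 over all cells and -1.20 ± 0.26 in the low-stress cells. The interferon list had 9 and 6 calls in cluster 0, and the foamy macrophage list 11 and 8 in cluster 1.

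Several chemokines and NF-kappaB targets took another sign within the low-stress or the high-stress cells. Cxcl2, a neutrophil chemokine, was 0.36 ± 0.07 over all cells, -0.37 ± 0.10 in the low-stress cells and -0.21 ± 0.10 in the high-stress cells. Ccl3 was 0.34 ± 0.12, -0.33 ± 0.17 and -0.34 ± 0.13 in the same order, and Nfkbia, the inhibitor of NF-kappaB, 0.31 ± 0.09, -0.39 ± 0.13 and -0.10 ± 0.12. Cxcl10, an interferon-induced chemokine, was 0.25 ± 0.17, -0.78 ± 0.23 and -0.70 ± 0.19. Ccl4 was 0.10 ± 0.09 over all cells, -0.10 ± 0.15 in the low-stress cells and -0.73 ± 0.12 in the high-stress cells. Of these subset values, Cxcl2 and Cxcl10 in the low-stress cells and Cxcl10 and Ccl4 in the high-stress cells passed edgeR's test, with adjusted p of 0.021, 0.0283, 0.00348 and 2.37e-08. These 5 genes and Il10 were picked after their values were seen, as were Olr1, Scarb1, Mmp12 and Cd209b above. Nfkbiz, one of the 4 NF-kappaB genes called higher in cluster 0, stood at -0.18 ± 0.15 in the low-stress cells, where none of the list was called higher in cluster 0. By contrast Lyve1 stood at 5.81 ± 0.22 and 4.94 ± 0.29, Il1b at -4.51 ± 0.32 and -3.87 ± 0.16, and Hmox1 at 1.84 ± 0.18 and 1.90 ± 0.17, after 2.81 ± 0.14 over all cells.

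**Figure D5:**
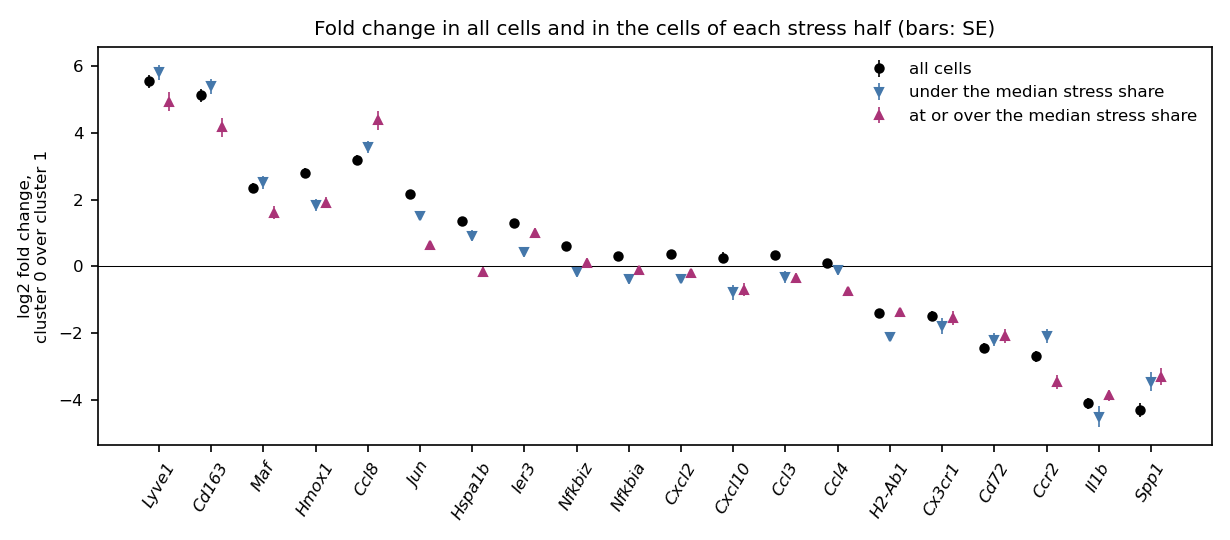
Log2 fold change, cluster 0 over cluster 1, of 20 genes on the y axis, over all cells (black circles), over cells under the median stress share (blue) and over cells at or over it (purple); bars are the SE. Lyve1, Cd163, Maf, Hmox1 and Ccl8 stay above 0 and H2-Ab1, Cx3cr1, Cd72, Ccr2, Il1b and Spp1 below 0 in each set, while Cxcl2, Cxcl10, Ccl3 and Nfkbia lie above 0 over all cells and below it in both subsets.

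Markers of T cells, NK cells and mast cells were sparse. T cell markers summed to 3 UMIs in cluster 0 and 6 in cluster 1, with Cd3e and Cd8a at 0 in both. NK cell markers summed to 7 and 15 UMIs with Ncr1 and Gzma at 0, and mast cell markers to 1 and 3 with Cpa3 at 0. Of the 675 UMIs of B and plasma cell markers in cluster 0, 628 were in 1 cell. Dendritic cell markers, which include Itgax, ranged from 12.5 to 58.9 CPM over the libraries of cluster 0 and from 59.2 to 102 in cluster 1. Neutrophil markers ranged from 36.1 to 132 and 29.1 to 59.3 CPM, fibroblast markers from 70.7 to 107 and 50.4 to 88.4, smooth muscle markers from 0 to 16.3 and 3.04 to 7.26, and endothelial markers from 5.30 to 20.8 and 11.0 to 50.8. Cavity macrophage markers were at higher levels, at 749 to 1485 CPM in cluster 0 and at 332 to 634 in cluster 1. They were found in 137 of the 635 cells of cluster 0, with up to 463 UMIs in 1 cell, and in 191 of the 543 cells of cluster 1. The part of these transcripts in the results was not tested.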

How the data were processed

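Live CD45+ aortic cells were profiled by 10x Genomics 3' sequencing, and reads were mapped to mm10 with Cell Ranger 3.0.2, per the labels' protocols; Seurat 3.1.1 is named in the submitters' processing notes. The authors deposited raw UMI counts for 18825 genes in 3002 myeloid cells, and per cell the percent of mitochondrial counts and a cluster number; how they filtered cells, removed doublets or clustered is stated in neither labels nor headers. A deposited log-normalized matrix was not used. Here counts were summed per cluster and biological replicate (4 sums), filtered with filterByExpr and tested with edgeR 4.0.16 (TMM, glmQLFit and glmQLFTest, replicate as a block, 1 residual degree of freedom, median prior degrees of freedom 52.5) in R 4.3.3; DESeq2 1.42.0 was an alternative. The adjusted p is Benjamini-Hochberg over all 8431 genes tested, called under 0.05 with no fold minimum. The clusters of a replicate come from the same libraries, hence the block; their deviations correlated at -0.03. CPM here is UMIs per 1000000 UMIs of the cluster, and SE is the absolute log2 fold change over the root of F. The method was tested on simulated data with 1 common spread and clusters set in advance. That test does not cover clusters drawn from the counts tested, as here. Named genes were the 12 highest and 12 lowest log2 fold changes among called genes that moved the same way in both replicates, reached 50 CPM in the higher cluster and had no cell with over 20% of its UMIs, up to 3 members per direction of each function list by the same conditions, the 4 markers, the 7 markers of the series text and Apoe. The clusters, markers and lists were chosen with earlier results of these data known, and the lists overlap, so no list was tested; the shares over all genes tested are given with the lists. Alternatives were other scaling and filters, no block, libraries as samples, 6 clusters in 1 fit, cells thinned to 2000 UMIs, the 5% of cells with most UMIs left out as possible doublets, count splitting (k-means on 20 components of 2000 genes), and leaving out libraries, replicates or genes. Promoter windows came from RefSeq tables, with 108 of 141 symbols matched, and gene coordinates from GENCODE (GRCm38). A few list members that the rule names are not reported here singly.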

Additional observations from a re-analysis of the deposited data

Results flagged for a closer look

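Of 69 groups of 4 libraries looked at, 8 had a library that stood far from the other 3, where chance gives about 1 in 20, or 3.45. Most are low levels that rest on few UMIs. In cluster 1, library 2-2 stood high for Vsig4 (2.42 CPM, the others at 0), Ccl24 (20.6 CPM, the others at 1.52 to 4.39) and Cd209f (19.4 CPM, the others at 0 to 1.63). In cluster 0, library 1-1 stood high for Mmp14 (16.6 CPM, the others at 1.06 to 3.06) and Cadm1 (8.32 CPM, the others at 1.96 to 2.12). Library 1-2 stood high for Vegfa in cluster 0 (14.3 CPM, the others at 0 to 0.982), and library 2-1 held the only Flt3 UMI of cluster 0 (1.06 CPM). Lyz2 in cluster 0 was lowest in library 1-1 (11863 CPM, the others at 13386 to 13700).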

How the results depend on the processing

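Against 1214 genes higher in cluster 0 and 1382 higher in cluster 1, DESeq2 called 306 and 458, thinning to 2000 UMIs 668 and 728, and, as choices made after seeing the data, the low-stress cells 581 and 683 and the high-stress cells 325 and 435. Leaving out 1 library or 1 replicate gave 590 to 1186 and 691 to 1305 genes, lowest without replicate 2. In the fits without a replicate, the libraries of the other replicate were the samples, so they do not measure biological spread. Without the replicate block 1060 and 1170 genes were called, of which 1055 and 1169 were shared; the paired and unpaired fits thus called similar numbers. All of DESeq2's calls were among those of edgeR with the same sign. Library totals moved the median log2 fold change by 0.118, to 0.134, and kept 100% of the calls in cluster 0 and 75.8% in cluster 1; the other fits kept the split at 40.05% to 48.8% higher in cluster 0. Of 124 called genes that the rule names, 26 lost their call with the sign kept in 1 or more of the 19 alternatives. The other 98 had no such loss where they had a value. Hspa1b is counted among these 98, but it turned sign in the high-stress cells and was not called there (edgeR adjusted p = 0.501). Clec4d, Stat2 and Mertk were among the genes that lost their call both with DESeq2 and in the high-stress cells. DESeq2's Wald test gave them adjusted p of 0.293, 0.183 and 0.18. Their log2 fold changes in the high-stress cells were -0.38, 0.26 and 0.36. Without library 1-2 the edgeR adjusted p rose to 0.0586 for Lrp1, 0.0548 for Scarb2, 0.578 for Cd68, 0.610 for Nfkbid, 0.148 for Grn, 0.0927 for Ms4a6d, 0.276 for Hk2, 0.227 for Lyz2, 0.596 for Ccl3 and 0.469 for Nfkbia; without library 2-2 it was 0.12 for Cd68, 0.419 for Nfkbid and 0.104 for Ms4a6d, and without library 2-1 0.0728 for Lyz2 and 0.0538 for Ccl3. Among the genes given with values in the text, besides Adgre1 near 0 (0.03 and 0.02 in the low- and high-stress cells), signs turned in the high-stress cells for Cd68 (0.18), Nfkbid (-0.34), Hspa1b (-0.16) and Il10 (1.23), in the low-stress cells for Nfkbiz (-0.18) and Hk2 (-0.44), and in both for Ccl4 (-0.10 and -0.73), Ccl3 (-0.33 and -0.34), Cxcl2 (-0.37 and -0.21), Cxcl10 (-0.78 and -0.70) and Nfkbia (-0.39 and -0.10); those cells are fewer and were divided by a list that moves with the contrast, and the cause was not tested. Of 986 list counts, 874 were within 1.5 times, 96 were lower and 16 higher. Depth limits the low genes, since 8431 of the 14156 genes with a UMI in these cells passed the count filter.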
